A study of Mus musculus with 2 samples.

Results

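The reticulons and the other proteins that shape tubules of the endoplasmic reticulum (ER) were compared between livers of Ppara-null mice and wild-type mice on fenofibrate. The 10 genes listed were the reticulons Rtn1, Rtn2, Rtn3 and Rtn4, the REEP genes Reep3, Reep4, Reep5 and Reep6, and the atlastins Atl2 and Atl3. They were selected on family membership with the measured contrast between these arrays already known, in which Rtn4 stood out, so the values below are a description of these genes and not a test of them. Of the 10 genes, 9 had at least 1 probe set with a single gene symbol, 25 probe sets in all, out of 18193 named genes and 34945 such probe sets on the array. No probe set was paired with Atl2 in the annotation used here.

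Both groups were male 129SvEJ mice, 8 weeks of age, that ate chow containing 0.2% fenofibrate for 7 days. One group lacked the nuclear receptor PPARα (pparalpha -/-, called null here) and the other was wild type. Liver RNA of 3 mice was pooled within each genotype, and each pool went onto 1 Affymetrix array, so there is 1 sample per group and no replicate. Fenofibrate, a lipid-lowering drug, is an agonist of PPARα. Since both groups ate it, effects of the genotype alone and effects of the genotype on the drug response cannot be told apart.

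Reticulons and REEPs insert hydrophobic hairpins into the outer leaflet of the ER membrane and bend it, which forms tubules and the edges of sheets. Atlastins are membrane GTPases that fuse tubules with each other and so build the branched network. Hepatocytes, which secrete most plasma proteins and carry out much of the body's drug and lipid metabolism, hold an extensive rough and smooth ER. Rtn4 is best known as Nogo, whose longest isoform inhibits axon growth in the central nervous system, and its shorter isoform Nogo-B is made in many tissues.

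Of the 7 members that were measured, 1 gene, Rtn4, was at least 2-fold lower in null livers, 0 were at least 2-fold higher, and 6 were within 2-fold. Over all 13041 measured genes, 4.99% were at least 2-fold lower in null and 2.8% at least 2-fold higher. A gene counted as measured when its signal reached the floor, the median of each array (269.4 for null and 287.8 for wild type), on at least 1 array. Signals are in arbitrary units scaled to a common target of 1000, and log2 ratios are null over wild type. The median log2 ratio of the 7 members was -0.26, and -0.17 without Rtn4, beside 0.00 (-0.0046) over all measured genes. In whole liver, fewer cells of a type and less RNA per cell cannot be told apart.

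Rtn4 was the member with the large difference. Its brightest probe set (1452649_at) gave a signal of 1677 in null and 15012 in wild type, 8.95-fold lower in null. The next one (1421116_a_at) gave 842.8 in null and 11292 in wild type, 13.4-fold lower. The null signals were thus 11.2% and 7.46% of the wild-type ones. They still lay 6.22 and 3.13 times above the null floor, and both exceeded the brightest Bacillus control probe set of the null array (422.4), which detects no mouse transcript. The 2 log2 ratios, -3.16 and -3.74, differed by 0.58. The pooled SD of single probe sets around their gene mean was 0.42 on this pair of arrays (10117 probe sets of 3917 genes). A difference between 2 probe sets spreads more widely than that SD.

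The other 3 probe sets of Rtn4 did not share this difference, and all were dim. One (1439650_at) lay just above the floor on both arrays, with 322.0 in null and 358.9 in wild type (log2 ratio -0.16). Another (1435284_at) was under the floor on both, at 166.7 in null and 214.4 in wild type. The dimmest (1437224_at) was also under both floors, at 152.7 in null and 45.3 in wild type, where signals have no order. The platform table pairs the 13.4-fold probe set with a RefSeq transcript and these 3 with single cDNA reads. For the brightest (1452649_at), which represents the gene, the annotation used here gives neither. Which Rtn4 isoforms each probe set detects is not given in the sources used here. When all 5 probe sets were summarised by their median, the log2 ratio of Rtn4 was -0.16, since 3 of the 5 are dim, and 0 members passed 2-fold.

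**Figure D1:**
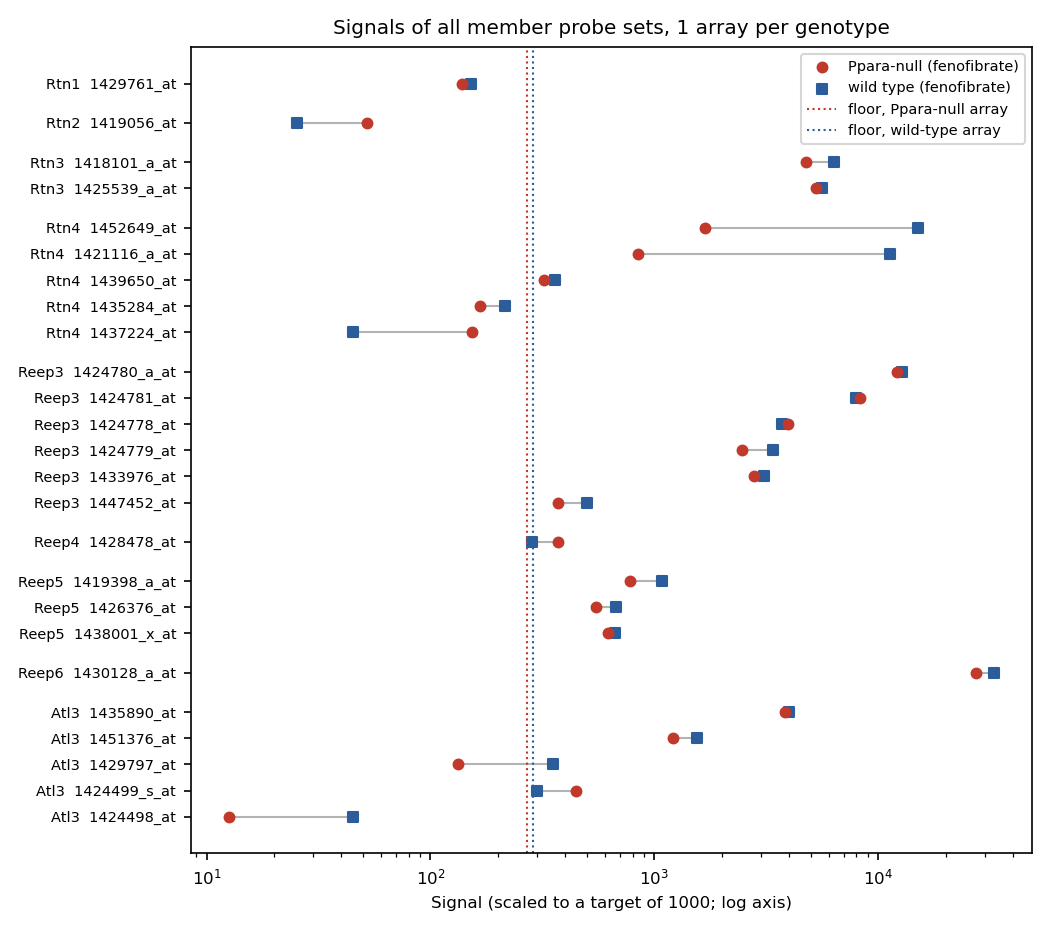
Signal of each member probe set on the Ppara-null array (red circles) and the wild-type array (blue squares), 1 array each, on a log axis, with the floor of each array as a dotted line. The 2 bright Rtn4 probe sets are far apart between the genotypes (1677 in null against 15012 in wild type for the brighter), while the probe sets of the other members above the floors on both arrays lie close together.

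Among the 10060 genes at or above the floor on both arrays, Rtn4 held the 6th lowest log2 ratio of null over wild type. Of the 2290 genes whose mean log2 signal was within 1 of that of Rtn4, the middle 90% lay between -0.64 and 0.67, and 5 had a lower ratio than Rtn4. With 2 arrays, likeness of pattern is only likeness of this ratio. The 3 genes next to Rtn4 on the lower side were Cox6b2, a cytochrome c oxidase subunit (35.8-fold lower in null), Cd36, which takes up fatty acids (17.8-fold), and Lpl, the lipoprotein lipase gene (10.98-fold). On the other side stood Serpina7, which encodes thyroxine-binding globulin (8.91-fold), the retinol saturase Retsat (8.89-fold) and the fatty aldehyde dehydrogenase Aldh3a2 (8.35-fold). The null signal of Serpina7 (281.2) lay under the brightest Bacillus control, and those of the other 5 lay above it.

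**Figure D2:**
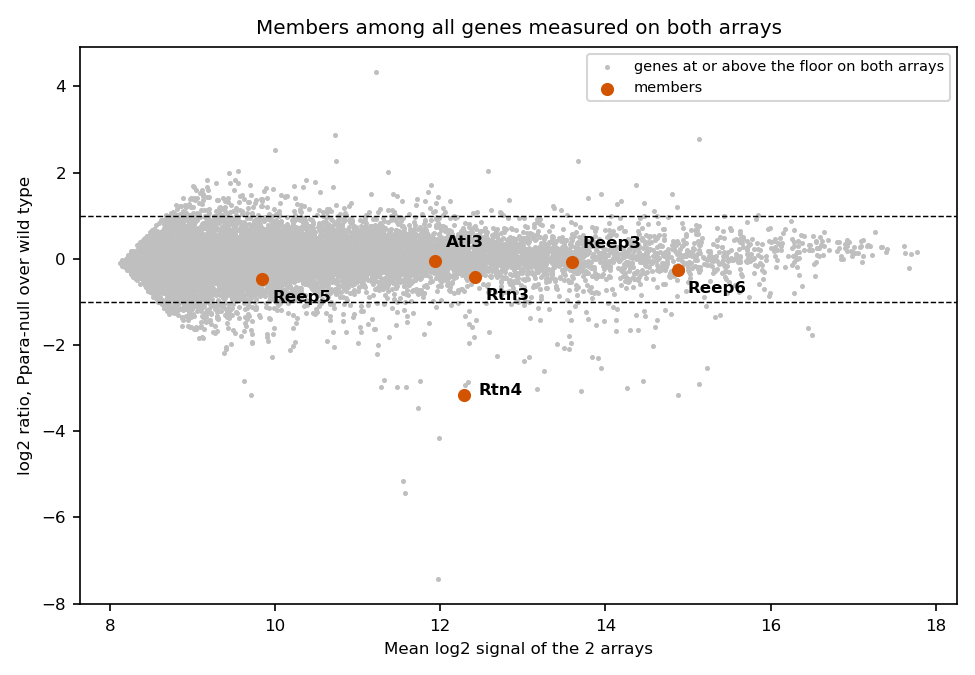
Log2 ratio of Ppara-null over wild type against the mean log2 signal for the 10060 genes at or above the floor on both arrays (grey), with the 6 members among them in orange and dashed lines at 2-fold. Rtn4 lies at -3.16, below the cloud, and the other 5 members lie between -0.47 and -0.06, inside it.

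RefSeq promoter windows of GRCm38.p6 were matched for Rtn1, Rtn2, Rtn3, Rtn4, Atl2 and Atl3, with 3 annotated starts for Rtn4. No windows of Reep3, Reep4, Reep5 and Reep6 were used. Member windows on a skipped chromosome had been left out, and whether this accounts for all of these genes was not checked. The absence does not mean that none of them has an annotated start. The 250 bases before the first and the third Rtn4 start are shown, because Rtn4 carries the difference, with those before the start of Rtn3, the other measured reticulon, for comparison. Capitals mark CCAAT in either orientation (CCAAT or ATTGG), the box bound by NF-Y. No copy of AGGTCA, the element read by one partner of a pair of nuclear receptors such as PPARα, was found in these windows on either strand.
Rtn4, the first start, chr11:29692648-29692897, plus strand: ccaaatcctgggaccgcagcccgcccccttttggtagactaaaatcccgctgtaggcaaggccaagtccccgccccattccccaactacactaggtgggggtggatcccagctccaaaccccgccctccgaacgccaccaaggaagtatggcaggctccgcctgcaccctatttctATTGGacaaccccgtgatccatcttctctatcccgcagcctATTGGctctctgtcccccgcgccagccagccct
Rtn4, the third start, chr11:29718313-29718562, plus strand: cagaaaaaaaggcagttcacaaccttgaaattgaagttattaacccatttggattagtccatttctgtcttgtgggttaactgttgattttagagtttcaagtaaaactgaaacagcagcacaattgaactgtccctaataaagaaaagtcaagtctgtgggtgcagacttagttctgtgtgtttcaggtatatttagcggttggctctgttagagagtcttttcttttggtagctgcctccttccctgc
Rtn3, chr19:7483292-7483541, minus strand: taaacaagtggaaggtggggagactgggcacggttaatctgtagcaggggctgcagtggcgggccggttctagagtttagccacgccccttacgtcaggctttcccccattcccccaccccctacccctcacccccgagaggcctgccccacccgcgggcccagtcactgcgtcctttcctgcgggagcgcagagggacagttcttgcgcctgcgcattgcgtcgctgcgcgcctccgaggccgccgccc

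The first Rtn4 window holds 2 CCAAT boxes, which begin 74 and 33 bases before the start. The window of the second Rtn4 start, which is not shown, that of the third and the Rtn3 window hold 0. Of 32851 promoter windows of this length, 33.8% hold at least 1 CCAAT in either orientation. Over the 10 member windows that were used, 3 hold CCAAT and 1, that of an Rtn1 start, holds AGGTCA, which occurs in 14.0% of all windows. A pair of AGGTCA copies with 1 base between them, the arrangement typical of PPAR elements, was in 0 of the 10 and in 0.0335% of all windows. These are matches of letters in short windows and do not describe binding.

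The remaining reticulons showed no difference of this size. Rtn3, which shapes tubules and in its long form also serves as a receptor for autophagy of ER tubules, was well above the floors at both probe sets. The first gave 4745 in null and 6347 in wild type (log2 ratio -0.42, 1.34-fold lower). The second gave 5270 in null and 5619 in wild type (-0.09). Rtn3 had 17.5% of the 10060 genes at lower ratios. Rtn1, a reticulon of neurons and neuroendocrine cells, was under both floors at its only probe set, with 137.9 in null and 151.0 in wild type. Rtn2, known from muscle and brain, was also under both, with 52.0 in null and 25.3 in wild type, so no fold is given for either.

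Among the REEP genes, Reep5 and Reep6 are tubule-shaping proteins, while Reep3 and Reep4 are known from human cells to keep ER membrane away from mitotic chromosomes. Reep6 was far above the floors at its 1 probe set, with 27452 in null and 32835 in wild type, a log2 ratio of -0.26. Reep5 had signals of 778.6, 550.8 and 620.7 in null at its 3 probe sets, against 1082, 674.6 and 669.2 in wild type. All 3 of its log2 ratios were negative, at -0.47, -0.29 and -0.11. The representative value, 1.39-fold lower, made Reep5 the member nearest to the 2-fold line after Rtn4.

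Reep3 had the most probe sets, 6, and all were above the floor on both arrays. The brightest gave 12079 in null and 12755 in wild type, and the dimmest 369.6 in null and 502.4 in wild type. Log2 ratios ran from -0.46 to 0.10 with an SD of 0.24 over the 6 probe sets, so the sign was not the same in all of them. Reep4 was dim, with 371.7 in null and 283.9 in wild type. The wild-type value lay just under its floor, so the difference is a bound of at least 1.29-fold higher in null, and it became -0.01 on the log2 scale after scaling to the hybridization controls. Reep4 counted as measured through the null array alone. With the floors at the 25th percentile, where both signals counted, its log2 ratio was 0.39.

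Atl3, the atlastin found in many tissues outside the nervous system, had 5 probe sets that did not point one way. The brightest gave 3848 in null and 4008 in wild type (log2 ratio -0.06), and the next gave 1206 in null and 1552 in wild type (-0.36). The third (1424499_s_at), of a kind that can detect more than 1 gene, gave 446.8 in null and 298.7 in wild type (0.58). The fourth (1429797_at) was under the floor in null only, at 132.1 against 353.7 in wild type, which is at least 1.31-fold lower. The dimmest was under the floor on both, with 12.6 in null and 45.0 in wild type. Rtn3 and Atl3 are next to each other on chromosome 19 among protein-coding genes in the RefSeq table, and neither passed 2-fold.

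At the level of probe sets, 20 of the 25 were measured, of which 2, both of Rtn4, were at least 2-fold lower in null and 0 at least 2-fold higher. Over all 22323 measured probe sets with 1 symbol the shares were 4.65% lower and 3.15% higher. Outside Rtn4, 15 member probe sets were above the floor on both arrays, with log2 ratios from -0.47 to 0.58, and 12 of the 15 were negative. These 15 come from 5 genes and share the same 2 arrays, so they are not replicates of each other. Shares of negative ratios over the whole array were not counted, here or for the lists below. The median over all genes above both floors was 0.02. The 18 probe sets of the hybridization controls, spiked into both samples, had a median log2 ratio of 0.38 (range 0.12 to 0.73). Scaling to them lowers every gene alike, with the median of all measured genes at -0.38 and that of the 7 members at -0.64, so signs near 0 depend on the scale while the place of a gene among the others does not.

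Other genes that shape the ER were within 2-fold in all 15 measured cases of the 17 listed, with a median log2 ratio of 0.13, of which 6 were negative and 9 positive. The 3 largest ratios were those of Ckap4, a spacer of ER sheets (at least 1.67-fold lower, 179.9 in null and 449.0 in wild type), Atl1, the atlastin of neurons (at least 1.55-fold lower, 238.3 in null and 417.2 in wild type), and the ER membrane protein Tmcc1 (1.44-fold higher, 3126 in null and 2174 in wild type). For Ckap4 and Atl1 the null signal was under its floor, so they counted through the wild-type array alone. Bright members of the list such as Rrbp1, a ribosome-binding sheet protein (9831 in null and 9876 in wild type), and Tmem33 (11621 in null and 11576 in wild type) were nearly equal on both arrays at the brightest probe set. Further probe sets above both floors lay between -0.10 and 0.46 for Rrbp1 and between -0.21 and -0.11 for Tmem33 on the log2 scale.

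Receptors for autophagy of the ER were all measured, 7 of 7, and 0 passed 2-fold in either direction. Their median log2 ratio was 0.29, with 6 positive. Retreg1, which bends and tags ER sheets for degradation and like the reticulons carries a reticulon homology domain, was nearest to the line, at 12980 in null and 6877 in wild type (1.89-fold higher). Its other probe set had a log2 ratio of 0.05, so the 2 probe sets disagreed. Ccpg1 followed, at 2974 in null and 1934 in wild type (1.54-fold higher), and Tex264 at 3944 in null and 3042 in wild type (1.30-fold higher).

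Receptors and partners of reticulons were measured for 7 of 11 genes, and 0 passed 2-fold, with a median log2 ratio of 0.00 (0.0007). The Nogo receptor gene Rtn4r was under both floors (88.4 in null and 126.6 in wild type). Nus1, also called the Nogo-B receptor, a subunit of the enzyme that makes dolichol, gave 4708 in null and 4706 in wild type, and its further probe sets above both floors had log2 ratios between -0.30 and 0.39. The 3 largest ratios were those of the receptor homologue Rtn4rl1 (-0.54), the sphingosine-1-phosphate receptor S1pr2 (0.38) and the β-secretase Bace1 (-0.26). Another probe set pointed the other way for Rtn4rl1 (0.04) and S1pr2 (-0.11). Further Bace1 probe sets above both floors lay between -0.68 and -0.48.

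General ER membrane genes, 18 of 20 measured, stayed within 2-fold at the probe set that represents each gene, with a median log2 ratio of 0.27 and 15 positive. Largest were the oligosaccharyltransferase subunits Rpn1 (1.56-fold higher, 12736 in null and 8181 in wild type) and Rpn2 (1.54-fold higher, 6155 in null and 3994 in wild type) and Ssr2 of the translocon-associated complex (1.52-fold higher, 4095 in null and 2702 in wild type). Further probe sets above both floors went past 2-fold for Rpn1, which ranged from -1.65 to 0.70 on the log2 scale, and for the translocon-associated subunit Ssr3, at 1.53 beside 0.29 for its brightest. After scaling to the hybridization controls the list medians were -0.25 for the ER-shaping genes, -0.09 for the autophagy receptors, -0.11 for the membrane genes and -0.38 for the reticulon partners, beside -0.38 for all measured genes.

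**Figure D3:**
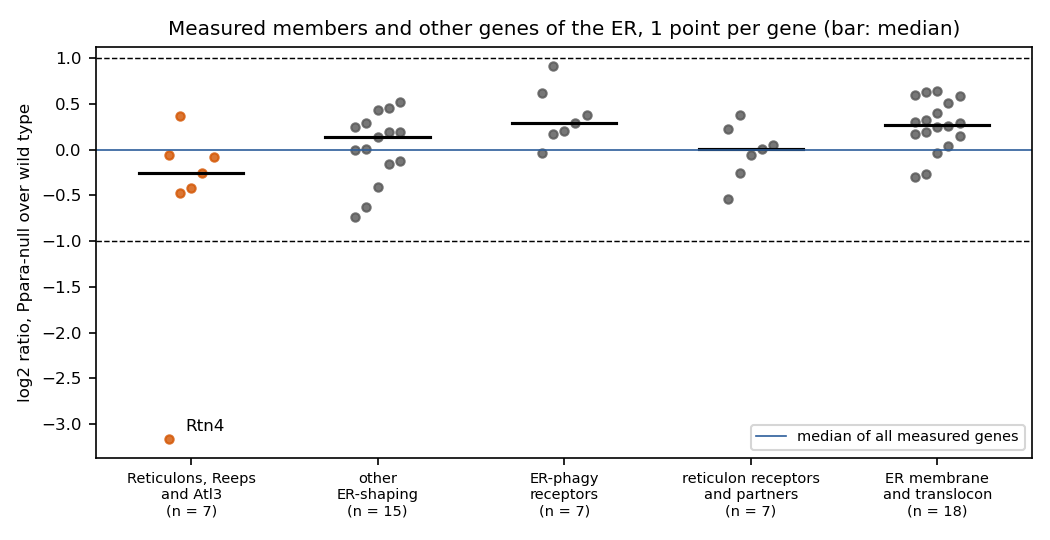
Log2 ratio of Ppara-null over wild type for the measured members (orange, n = 7) and the measured genes of 4 other ER lists (grey), 1 point per gene, with the list median as a black bar, the median of all measured genes as a blue line and dashed lines at 2-fold. Rtn4, at -3.16, is the 1 gene beyond 2-fold in the plot.

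As a check of the labels, Ppara had null signals of 3414, 2953 and 1551 at its 3 probe sets, against 7957, 5833 and 4312 in wild type, or 42.9%, 50.6% and 36.0% of wild type. Where the gene was disrupted is not stated in the labels. All 7 measured hepatocyte markers were bright, with log2 ratios of 0.14 to 0.56. Of the lists of other cell types, the 5 skeletal muscle markers summed to a signal of 684.7 in null and 2672 in wild type. Of the 3 measured, Acta1 was at least 4.54-fold lower (229.7 in null and 1224 in wild type), Tnnt3 at least 2.04-fold lower (11.6 in null and 549.0 in wild type), and Ckm had a log2 ratio of -0.45. Acta1 and Tnnt3 were under the null floor and counted through the wild-type array alone, which fixes their direction. Muscle also expresses Rtn4, and the part of these markers in its difference was not tested. The muscle gene Rtn2 was under the floor on both arrays, so its signals give no information on muscle. Macrophage markers leaned the other way, with 6 of 7 measured positive (median 0.62) and Cd5l 2.12-fold higher in null. Of the 6 endothelial markers 3 were negative (median 0.01), and Pecam1 was at least 2.36-fold lower (228.0 in null and 636.9 in wild type), counted through wild type alone. Ptprc, a marker of leukocytes, was 2.26-fold lower (363.5 in null and 822.8 in wild type). The summed signals of macrophage, endothelial and stellate markers were 23168, 12081 and 23867 in null, against 16148, 10949 and 18839 in wild type. At or above the floor on both arrays were 0 of the cholangiocyte markers, 0 of the neuron and Schwann cell markers and 1 of the lymphocyte and dendritic cell markers.

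**Figure D4:**
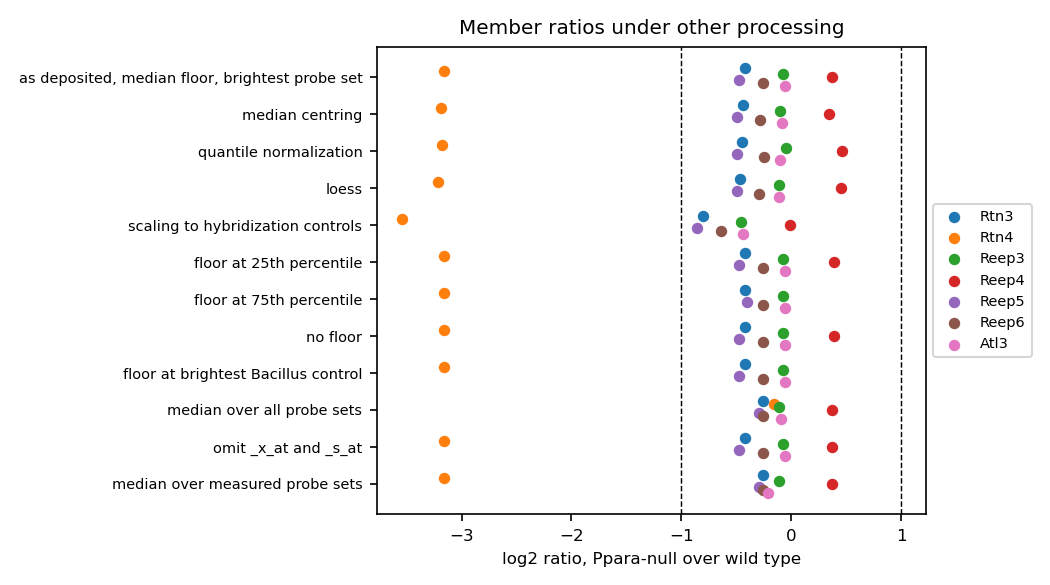
Log2 ratio of Ppara-null over wild type of the 7 measured members (horizontal axis) under the deposited scaling and 11 other ways of processing (rows), with dashed lines at 2-fold. Rtn4 lies between -3.54 and -3.16 in all rows but 1, the median over all probe sets (-0.16), and the other members lie inside the 2-fold lines in every row that measured them.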

How the data were processed

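Liver RNA was measured on 2 Affymetrix arrays, 1 per genotype, each from a pool of 3 mice. The deposited values are signal intensities on a linear scale, made with the Affymetrix statistical algorithm and scaled over all probe sets to a target of 1000, per the labels. The mean without the lowest and highest 2% was 1000.01 on each array. The software version is not given in the sources used here, and detection calls were not used.

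Probe sets were named from the platform annotation of 2016. Those with several symbols (932) or none (9160) were left out. Signals under the array's median were raised to it, log2 ratios of null over wild type were taken, and each gene took the values of its probe set of highest mean log2 signal. With 1 array per genotype there is no test, SE or p-value, and genes were called at 2-fold. The number of arrays limits the precision. Members and lists were chosen with earlier results of these data known. Named genes were all members, Ppara, the 3 genes on each side of Rtn4, and in each list the 3 largest ratios and any past 2-fold. Other genes (Rrbp1, Tmem33, Rtn4r, Nus1 and Ssr3, and the markers) were named after their values were seen. The script that makes the calls was run on simulated arrays as a check of the code only. Python 3.11.15, numpy 2.4.6, pandas 2.3.3, statsmodels 0.14.6 and matplotlib 3.10.9 were used.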

Additional observations from a re-analysis of the deposited data

How the results depend on the processing

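No paired analysis was possible because each genotype has 1 array. With 1 array per genotype, no replicate could be left out either. The call of Rtn4 as at least 2-fold lower in null held under median centring, quantile normalization, loess, scaling to the hybridization controls, the 4 other floors, omission of _x_at and _s_at probe sets, and thresholds of 1.5-fold and 3-fold. Under the median over all probe sets its log2 ratio was -0.16 and 0 members were called. Over the probe sets measured on at least 1 array, a summary chosen after seeing the data, it was -3.16. With no floor, 1 of 9 members, Rtn2, was at least 2-fold higher in null, at signals under both floors. Under the same setting 2177 of all 18193 genes were at least 2-fold higher in null, so the Rtn2 call does not set the members apart. Scaling to the hybridization controls moved the median log2 ratio of the members to -0.64 and that of the other ER-shaping genes to -0.25. Of the latter, 2 were at least 2-fold lower under that scaling, with the floor at the 25th percentile and with no floor, and 2 passed a threshold of 1.5-fold, against 0 as reported. Each count is 2 of 15 genes, near the shares of all measured genes that were lower under the same settings (13.5%, 14.0%, 17.0% and 14.8%). The 2 were Ckap4 and Atl1 under that scaling and at 1.5-fold. With the floor at the 25th percentile and with no floor they were Ckap4 and Reep2 (87.9 in null and 359 in wild type). At 1.5-fold, 2 of the 7 ER-phagy receptors and 3 of the 18 ER membrane genes were higher in null, against 0 at 2-fold. Of all measured genes, 11.0% were higher at 1.5-fold. Of 75 member ratios under the alternatives, 74 moved by less than the probe set SD of 0.42. Many of them could not move further. Other floors leave the ratio of a probe set above them unchanged, and scaling to the hybridization controls shifts each member by the same 0.38. The count is therefore no measure of how stable the ratios are. The share of lower genes among all 2-fold calls was 64.1% as deposited and 94.2% after scaling to the hybridization controls (1759 lower and 109 higher, against 651 and 365). With floors at the brightest Bacillus controls it was 49.5% (297 lower and 303 higher). Signals near the floor limit what can be said of Rtn1, Rtn2, Reep4 and the 3 dim Rtn4 probe sets.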

Other observations

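The 2 bright Rtn4 probe sets kept a smaller share of the wild-type signal in null (11.2% and 7.46%) than any of the 3 Ppara probe sets (36.0% to 50.6%). The 5 member probe sets under the floor on both arrays had log2 ratios from -1.84 to 1.75 as deposited, wider than the -0.47 to 0.58 of the 15 probe sets above both floors outside Rtn4. ER-phagy and ER membrane genes had positive medians (0.29 and 0.27) on the same arrays on which 6 of 7 measured members were negative, a difference between lists that was not tested.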
